A study of Mus musculus with 24 samples.

Results

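The bead array used here carries 44 probes whose names start with "solexa-" among its 655 probes, and both deposited tables hold all of them. They were chosen by that prefix alone and stand beside 611 probes for named microRNAs (miRNAs). The name points to sequencing as their source, and the files give each one a target sequence but no gene. RNA was flushed with a phenol-based reagent from the intima, the inner lining, of the carotids of male C57Bl6 mice, 6 to 8 weeks old. Partial ligation under anesthesia had closed the external carotid, the internal carotid and the occipital artery on the left and spared the superior thyroid artery, so that flow in the left carotid was low and oscillatory. The 4 groups of 6 arrays are the ligated left carotid and the right carotid at 12 h after surgery, and the ligated left carotid and the right carotid at 48 h. All 4 groups come from operated mice, with no sham-operated or unoperated arteries, so flow, surgery and body side cannot be told apart. The labels do not say whether samples came from separate animals or from pools, so a p-value covers only the scatter among these samples, which may be technical.

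Small RNAs come from several sources. A miRNA is cut from a hairpin as a duplex, and one strand is usually kept while the other, the passenger strand, is mostly lost. The base pairing of a miRNA with its targets rests on its seed, bases 2 to 8 from the 5′ end. Transfer RNAs (tRNAs) also give rise to short fragments, and cutting of mature tRNA near the anticodon is a known stress response. A tRNA gene has its promoter inside the gene, and the first of its internal elements, the A box, lies near the start of the tRNA itself, in the D arm.

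The targets were 16 to 30 bases long. Of the 44, 28 matched a miRNA in RefSeq (assembly GRCm38.p6). For 27 of these the whole target lay inside a RefSeq miRNA hairpin, and the target of solexa-3253-144 held all of mature miR-3473b. When 2 bases were left out at each end of the targets, these 27 matched by necessity, and no other member did. A RefSeq mature sequence was found for 26 of the 28, and 25 started at the same base as it. The exception was solexa-173-2522, which started 1 base away from miR-132-5p. For solexa-110-3896 (Mir219a-2) and solexa-4983-92 (Mir539) only the hairpin was listed.

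Of the 16 targets with no RefSeq miRNA, 8 contained a loose form of the A box, in each case from base 8 of the target. The search ran along the strand of the target as listed, and the form was set after the sequences had been read. The same form was found in 9 of the 44 targets (20.5%), the ninth being miR-133b-5p, against 2 of the 611 named-miRNA targets (0.327%) and 6 of the 1738 RefSeq mature miRNAs (0.345%). A match describes the letters and does not show where a fragment was made. Of the 8 targets, 7 are shown here, with the A box in capitals:
solexa-284-1594: ggctcgtTGGTCTAGGGGtatgattc
solexa-308-1456: gcccggcTAGCTCAGTCGGtaga
solexa-622-718: ggggatgTAGCTCAGTGGtaga
solexa-200-2167: gtcaggaTGGCCGAGCGGtctaag
solexa-447-1003: gtcaggaTGGCCGAGTGGtctaagg
solexa-4153-111: gacctcgTGGCGCAATGG
solexa-103-3961: tcctcgtTAGTATAGTGG
The targets of solexa-200-2167 and solexa-447-1003 share a run of 15 bases and differ by C16T, counted from the 5′ end of the first, so these 2 probes may in part have read the same RNA. No other pair among the 44 shared 14 bases or more.

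The miRNA matches that the results below turn on are these mature sequences from RefSeq, with the seed in capitals:
miR-3473b (solexa-3253-144): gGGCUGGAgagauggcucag
miR-204-3p (solexa-5593-81): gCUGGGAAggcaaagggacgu
miR-1247-5p (solexa-5306-86): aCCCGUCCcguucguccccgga
miR-181b-1-3p (solexa-4179-110): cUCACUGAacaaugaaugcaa
miR-148b-5p (solexa-5067-90): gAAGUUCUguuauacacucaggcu
miR-212-5p (solexa-201-2163): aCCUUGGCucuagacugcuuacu
miR-3535 (solexa-3062-153): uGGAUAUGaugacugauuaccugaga
No seed was shared between members. The seed of miR-148b-5p also belonged to the array's miR-148a* probe, and the seed of miR-370-5p (solexa-1416-339_2) to its miR-1193 probe.

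The chromosome column of the files read 0 for all 44 members and for 21 of the other 611 probes, so the files place none of them. The loci that follow come from the RefSeq match in GRCm38.p6. Mature miR-212-5p lies in Mir212 at chr11:75173403-75173425 (plus strand), next to Mir132, whose 5p strand is at chr11:75173686-75173707 (plus strand). Mature miR-204-3p lies in Mir204 at chr19:22750649-22750669 (plus strand), and miR-148b-5p in Mir148b at chr15:103285148-103285171 (plus strand). Mature miR-181b-1-3p lies in Mir181b-1 at chr1:137966690-137966710 (plus strand), miR-3473b in Mir3473b at chr10:41670774-41670793 (plus strand), and miR-1247-5p in Mir1247 at chr12:110278094-110278115 (minus strand). The target of solexa-3253-144 did not lie whole inside the Mir3473b hairpin, so that locus is the one of mature miR-3473b and may not be that of the target. Chromosome 12 held 10 of the 28, among them the strands from Mir329, Mir370, Mir381, Mir493, Mir541 and Mir543, miRNA genes of the imprinted Dlk1-Dio3 region. For 19 of the 28, the other strand of the same hairpin, such as miR-212 or miR-204 itself, has a named probe on the array.

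Arrays of the carotid intima detected 335 to 431 of the 655 probes (detection p under 0.05). The 6 arrays of each artery at 12 h formed 3 pairs that agreed closely (rank correlation 0.986 to 0.998, against at most 0.874 outside the pairs). Each pair was averaged and counted as 1 sample, so that n is 3 per artery at 12 h and 6 at 48 h. Both strands of miR-126, a miRNA of endothelium, were detected on every array, and so were the smooth muscle miRNAs miR-143 and miR-145. By mean correlation, right sample 1 at 12 h and right samples 3 and 5 at 48 h were nearer to the left group than to their own. In such bulk RNA, fewer cells of a type and less of an RNA per cell cannot be told apart.

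Most of the solexa probes were detected on some arrays and not on others. Over the 24 arrays, 11 of the 44 were detected on every one, 27 on some and 6 on none (13.6%), beside 220 of all 655 probes on every array (33.6%) and 70 on none (10.7%). Those never detected were the strands miR-499-3p, miR-541-3p, miR-133b-5p and let-7e-3p and the unmatched solexa-130-3526 and solexa-2546-186. The A box probes solexa-308-1456 and solexa-4153-111 were among those detected on all 24 arrays. At 12 h, 26 to 29 members were detected on the left arrays and 22 to 27 on the right arrays. At 48 h, 24 to 29 were detected on the left arrays and 22 to 27 on the right arrays, so the ranges overlapped at both times.

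**Figure D1:**
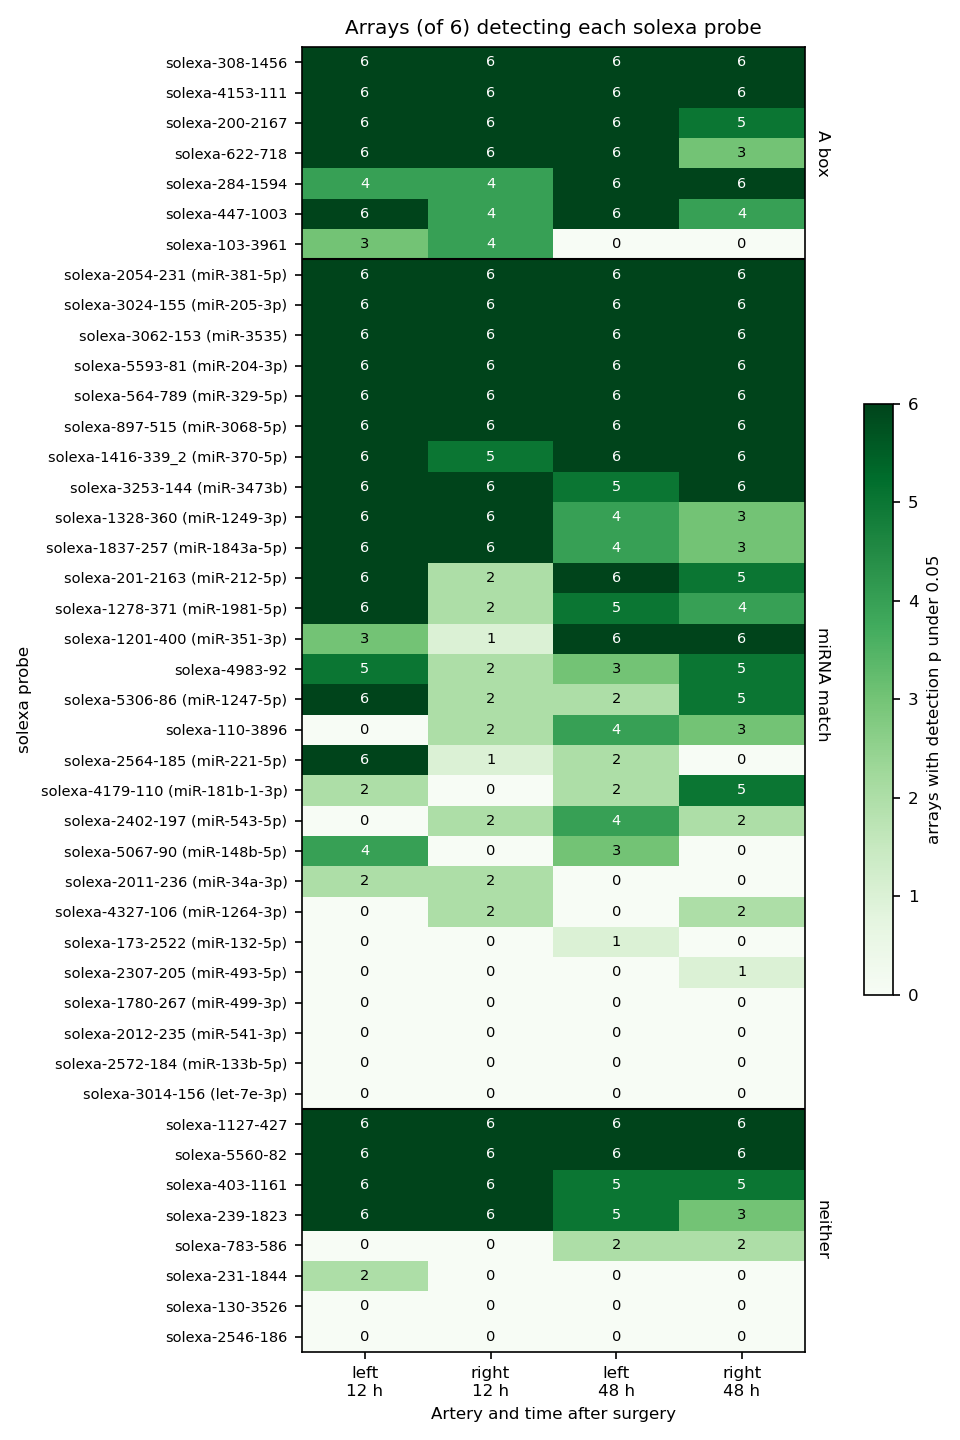
Number of arrays (0 to 6, colour and figure in each cell) on which each of 43 solexa probes had a detection p under 0.05, with probes in rows by sequence class and the left and right carotid at 12 h and 48 h in columns. The 10 probes at 6 in every column include some of each of the 3 classes, while none of the 6 probes at 0 in every column is an A box probe.

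A few members were detected mainly at one time or in one artery. The A box probe solexa-103-3961 was detected on 3 of 6 left and 4 of 6 right arrays at 12 h, and on 0 of 6 in either artery at 48 h. At 48 h its raw signal was 33 to 48 on the left arrays and 34 to 53 on the right arrays. Since each time point was deposited as its own table, this gap cannot be told apart from a difference between the tables. The miR-148b-5p probe was detected in the left carotid at both times, on 4 of 6 arrays at 12 h and 3 of 6 at 48 h, and on 0 right arrays at either time. Its normalized signal was 8.45, 9.24 and 5.73 (log2) in the left samples at 12 h, against 5.78, 5.74 and 5.75 in the right samples, so 2 of 3 left samples stood above the right ones. At 48 h its left samples ran from 5.01 through a median of 5.79 to 11.43, and its right samples from 5.00 through 5.02 to 5.03. Against the lowest detected signal of each right array, the left mean was at least 1.04-fold higher at 12 h and at least 1.51-fold higher at 48 h, with adjusted p of 0.497 and 0.299 in limma's fit. miR-148b-5p is the strand opposite miR-148b.

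A probe was tested where at least 3 arrays of at least 1 artery detected it. That left 29 of the 44 members at 12 h and 30 at 48 h, with 27 tested at both times and 12 at neither. All values below are normalized log2 signals, and changes are left minus right.

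At 48 h, 1 of the 30 members tested passed the threshold (adjusted p under 0.05), beside 12 of all 407 probes tested (2.95%), 8 of them higher on the left (1.97%), so the members' share was near that of all probes. It was the A box probe solexa-284-1594, which was higher in the ligated left artery than in the right. Its signal ran from 13.47 through a median of 13.55 to 13.65 in the 6 left samples, and from 12.33 through 12.62 to 13.18 in the 6 right samples. Every left sample stood above every right one, and the left samples lay close together. The mean was 13.55 ± 0.07 on the left and 12.63 ± 0.31 on the right (SD, n = 6 each), a change of 0.92 ± 0.14 (SE, adjusted p = 0.0121, 6 of 6 left samples above the right mean). Leaving out any 1 sample kept the change between 0.86 and 1.05 and the adjusted p between 0.00059 and 0.0496. Scaling each array to its 75th percentile in place of quantile normalization gave 0.68 with an adjusted p of 0.282, and the replicate number as a block gave 0.92 with an adjusted p of 0.0933, and each of these ends the call. Groups failed to overlap for 19 of the 407 probes (4.67%). In raw signal, before normalization, the arteries did overlap for solexa-284-1594, at 9590 to 14790 on the left arrays and 4141 to 10875 on the right.

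At 48 h the left mean stood above the right mean for each A box probe tested, with wide differences in spread. All 7 that were tested had a change above 0, with a median of 0.96, beside 203 of all 407 probes above 0 and a median of -0.00084 over all probes. Each of the 7 had been detected on at least 3 arrays of both arteries, so none entered the test through the left carotid alone, and the eighth, solexa-103-3961, was not tested. With an unadjusted p under 0.05 there were 5 of the 7, all higher on the left, beside 41 of the 407 probes higher on the left (10.1%). The 7 were read in the same 12 samples, so their signs are not separate observations. Rank correlations were taken over the 12 samples, left and right together. The rank correlation was 0.77 between solexa-284-1594 and solexa-308-1456 and 0.68 between solexa-200-2167 and solexa-622-718. With solexa-447-1003 it was 0.007 for solexa-284-1594 and 0.16 for solexa-308-1456. That of solexa-4153-111 with the others was -0.38 to -0.03. A left-right difference shared by a pair of probes enters these values, so they do not show whether probes vary together within an artery. Without right sample 3, 6 of the 7 were above 0. Without the 3 right arrays that detected the fewest probes, an alternative chosen after seeing the data, all 7 were, with a median of 0.81. The all-probe median then was 0.12, against -0.00084 with all samples.

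**Figure D2:**
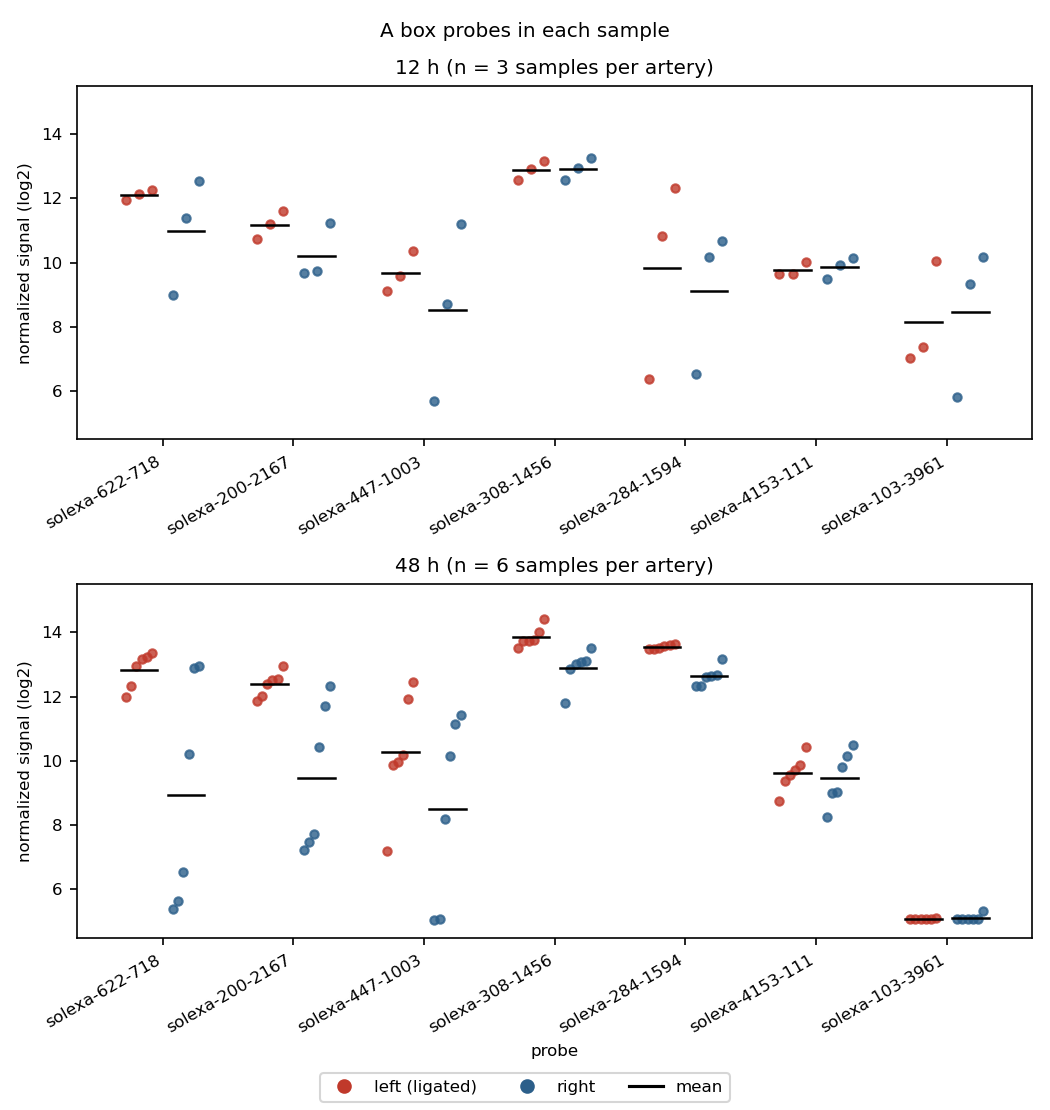
Normalized signal (log2, y axis) of 7 A box probes in each sample at 12 h (upper panel) and 48 h (lower panel), with left carotid samples in red beside right carotid samples in blue and a bar at each mean. At 48 h the left samples of solexa-284-1594 all lie above the right ones, and the right samples of solexa-622-718 and solexa-200-2167 are spread far more widely than the left.

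The A box probe solexa-308-1456 ran from 13.51 through a median of 13.75 to 14.40 in the left samples at 48 h, and from 11.80 through 13.04 to 13.53 in the right samples. The ranges overlapped only by the highest right sample, which stood just above the lowest left one. Its change was 0.96 ± 0.26 (SE, adjusted p = 0.0789), and it passed the threshold where right sample 1 or right sample 4 was left out (adjusted p = 0.0475 and 0.0398), and without the 2 right arrays that detected the fewest probes (0.84, adjusted p = 0.0182).

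The largest changes among the A box probes belonged to solexa-622-718 and solexa-200-2167, and in both the right samples split. solexa-622-718 ran from 11.98 through a median of 13.06 to 13.37 on the left. Its right samples 3 and 5 reached 12.89 and 12.96, right sample 4 stood at 10.21, and right samples 1, 2 and 6 stood at 6.56, 5.63 and 5.38, and it was detected on 6 of 6 left and 3 of 6 right arrays. The change was 3.90 ± 1.36 (SE, adjusted p = 0.137). solexa-200-2167 ran from 11.86 through 12.47 to 12.95 on the left and from 7.22 through 9.07 to 12.33 on the right, a change of 2.90 ± 0.90 (SE, adjusted p = 0.109). It passed without right sample 3 (3.47, adjusted p = 0.0419), its brightest right sample. Its low right samples were 1, 2 and 4, at 7.72, 7.49 and 7.22, and these arrays detected the fewest probes at 48 h (336, 356 and 335 of 655). Right sample 6, the lowest for solexa-622-718, detected 387. The part of array quality in these changes was not tested. solexa-447-1003, whose target differs from that of solexa-200-2167 at 1 base over their shared stretch, ran from 7.20 through 10.07 to 12.45 on the left and from 5.04 through 9.17 to 11.43 on the right. Its change of 1.76 ± 1.31 (SE, adjusted p = 0.495) was close to its error. Right samples 3 and 5, the highest right samples for solexa-622-718, are those that were nearer to the left group over all probes. solexa-4153-111 showed the smallest separation, 8.75 to 10.43 on the left and 8.26 to 10.49 on the right (change 0.16 ± 0.45, SE, adjusted p = 0.882).

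Among markers of other cells, the leukocyte miRNA miR-223 also separated the arteries at 48 h. Its raw signal was 20226 to 28946 on the left arrays and 1127 to 12576 on the right, without overlap, and its change was 1.95 ± 0.60 (SE, adjusted p = 0.107). The summed raw signal of miR-223, miR-142-3p, miR-142-5p and miR-150, miRNAs abundant in white blood cells, was 25365 to 33021 on the left arrays and 1592 to 20874 on the right, without overlap. Of these 4, miR-142-3p had a change of 0.15 and miR-150 of 0.51, both with overlapping arteries, miR-150 had a higher median on the right (11.50 on the left and 12.43 on the right), and miR-142-5p was detected on 0 left arrays and 1 right array and was not tested. On the left arrays miR-223 made up most of the summed signal, so the sum's lack of overlap is not a second observation. The smooth muscle miRNAs miR-143 and miR-145 had changes of -0.31 ± 0.14 and -0.21 ± 0.06 (SE, adjusted p = 0.262 and 0.0992), with 5 of 6 and 6 of 6 left samples below the right mean, and their summed raw signal was 24965 to 37963 on the left arrays and 26706 to 41812 on the right. The striated muscle miRNA miR-1 was detected on 1 left and 4 right arrays (-4.12 ± 1.53, SE, adjusted p = 0.158). Other striated muscle miRNAs did not share that change. miR-133a and miR-133b were detected on 6 of 6 arrays of each artery, with changes of -0.17 ± 0.58 and 0.14 ± 0.35 (SE). miR-206 was detected on 0 left arrays and 1 right array and was not tested. Of the 3 red cell miRNAs, miR-451 and miR-486 were detected on every array, with changes of -1.63 ± 1.02 and 0.03 ± 0.07 (SE), a summed raw signal of 24074 to 43670 on the left arrays and 22260 to 39325 on the right, and miR-144 was detected on none. The 2 strands of the endothelial miR-126 had changes of opposite sign at 48 h. miR-126-3p was at 1.86 ± 0.87 and miR-126-5p at -0.63 ± 0.51 (SE, adjusted p = 0.272 and 0.533). Left samples stood above the right mean in 4 of 6 cases for miR-126-3p and in 0 of 6 for miR-126-5p, and both overlapped. None of the markers tested passed the threshold, and their part in the A box result was not tested. Among 6 named probes whose miRNA entries were later traced to ribosomal or transfer RNA (miR-712, miR-714, miR-715, miR-720, miR-689 and miR-805), 2 were tested at 48 h, miR-712 at 4.11 and miR-720 at 0.17, and neither passed the threshold.

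None of the miRNA-matched members passed the threshold at 48 h. Of 19 tested, 15 had been detected on at least 3 arrays of both arteries, and of these 6 were above 0 and 9 below, with a median of -0.56, beside the all-probe median of -0.00084. Of the other 4, 2 passed the filter through the left carotid alone and were above 0, and 2 through the right alone and were below 0, as the filter makes likely. With an unadjusted p under 0.05 there were 4 of the 19, beside 72 of 407 probes (17.7%).

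The lowest p in this class belonged to solexa-5593-81, which reads miR-204-3p, the strand opposite miR-204. It ran from 9.68 through a median of 10.25 to 13.51 in the left samples, and from 11.90 through 12.82 to 13.67 in the right samples. Left samples 5 and 6 (13.51 and 12.48) stood within the right range, and the other 4 left samples below it. The change was -1.84 ± 0.67 (SE, adjusted p = 0.151). The miR-204 probe itself was detected on 0 left arrays and 1 right array at 48 h and was not tested.

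miR-1247-5p and miR-181b-1-3p gave the largest negative changes, and in both the samples were either bright or near background. For miR-1247-5p (solexa-5306-86), left samples 5 and 6 stood at 9.93 and 9.71 and the other 4 at 5.00 to 5.09, while the right samples ran from 5.07 through 11.83 to 13.11. Arrays that detected it were 2 of 6 left and 5 of 6 right, and the change was -3.75 ± 1.55 (SE, adjusted p = 0.222). For miR-181b-1-3p (solexa-4179-110), left samples 1 and 5 stood at 11.72 and 12.26 and the other 4 at 5.08 to 5.35, while 5 of 6 right arrays detected it, at 11.68 to 13.10, and right sample 3 stood at 5.05. The change was -3.92 ± 1.78 (SE, adjusted p = 0.272). Both entered the test through the right carotid alone, so their negative sign follows in part from the filter. The miR-181b probe, the opposite strand, was detected on all 12 arrays and had a change of -0.42 (adjusted p = 0.847).

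**Figure D3:**
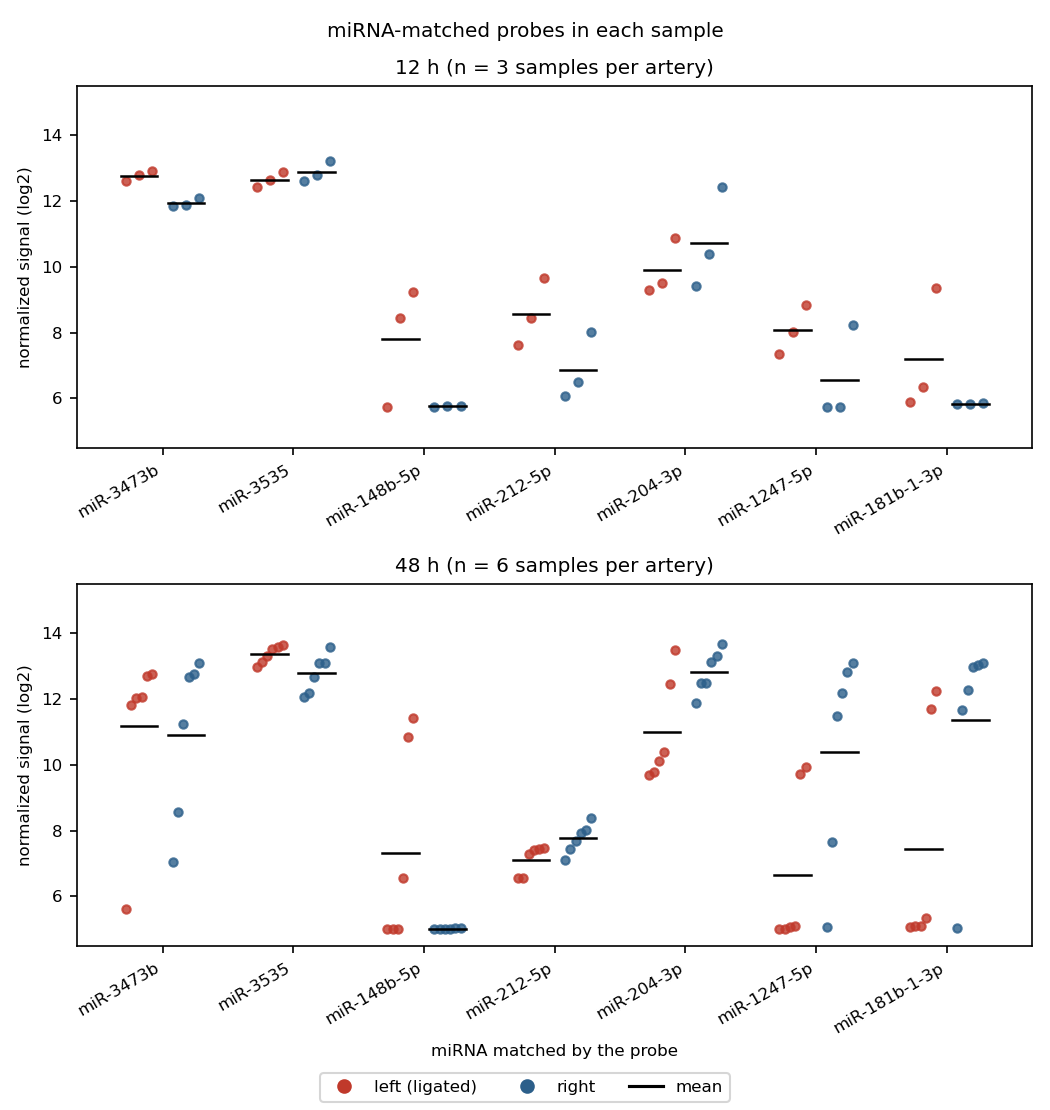
Normalized signal (log2, y axis) of 7 miRNA-matched probes in each sample at 12 h (upper panel) and 48 h (lower panel), with left carotid samples in red beside right carotid samples in blue and a bar at each mean. At 12 h the 3 left samples for miR-3473b lie above the 3 right ones, and at 48 h those for miR-1247-5p and miR-181b-1-3p divide between bright samples and samples near 5.

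The remaining miRNA matches with small p were detected in both arteries. miR-3535 (solexa-3062-153) ran from 12.98 through 13.41 to 13.65 on the left and from 12.08 through 12.88 to 13.60 on the right, with a change of 0.58 ± 0.26 (SE, adjusted p = 0.262). miR-212-5p (solexa-201-2163) ran from 6.55 through 7.36 to 7.46 on the left and from 7.11 through 7.81 to 8.37 on the right, with a change of -0.64 ± 0.30 (SE, adjusted p = 0.272). miR-3068-5p (solexa-897-515) ran from 8.57 through 8.88 to 9.77 on the left and from 8.57 through 9.63 to 11.98 on the right, with a change of -1.16 ± 0.58 (SE, adjusted p = 0.299). The left samples of miR-3535 were above the mean of the right ones in 6 of 6 cases, and those of miR-212-5p and miR-3068-5p in 0 of 6. Of the Dlk1-Dio3 strands named with the loci, those tested at 48 h did not pass the threshold, and neither did the Mir539 strand. miR-370-5p was at -1.06 ± 0.59, miR-381-5p at -0.68 ± 0.36, miR-329-5p at -0.58 ± 0.39, the Mir539 strand at -1.66 ± 1.32 and miR-543-5p at 2.11 ± 1.40 (SE). The smallest adjusted p among these strands was 0.307, for miR-381-5p. miR-1247-5p, also on chromosome 12, had a lower one (0.222). miR-543-5p was detected on 4 left and 2 right arrays. It entered the test through the left carotid alone, so its positive sign follows in part from the filter. The rest of the class at 48 h had adjusted p of at least 0.535, with miR-1843a-5p at 1.11, miR-351-3p at 0.78, the Mir219a-2 strand at 0.45, miR-1249-3p at 0.26, miR-205-3p at -0.28 and miR-1981-5p at -0.56.

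Of the members that were tested at neither time, 6 were never detected and the others were detected on at most 2 arrays of any group. miR-34a-3p (solexa-2011-236), the strand opposite the p53-regulated miR-34a, stood at 10.95 in left sample 1 and 11.19 in right sample 1 at 12 h, and between 5.67 and 5.68 in the other 4 samples. miR-1264-3p (solexa-4327-106) was detected on 0 left and 2 right arrays at each time, at 10.94 in right sample 2 at 12 h and at 13.19 and 12.03 in right samples 4 and 6 at 48 h. miR-132-5p was detected on 1 left array at 48 h and miR-493-5p on 1 right array at 48 h.

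Of the 8 members with neither a miRNA match nor an A box, 4 were tested at 48 h, and none of the 4 passed the threshold. solexa-1127-427 ran from 12.89 through a median of 13.27 to 13.88 on the left and from 8.58 through 12.28 to 12.87 on the right. The groups did not overlap, although the lowest left and the highest right sample nearly met. Its change was 1.81 ± 0.63 (SE, adjusted p = 0.137). solexa-5560-82 ran from 11.55 through 12.20 to 12.87 on the left and from 12.24 through 12.89 to 13.32 on the right, with a change of -0.64 ± 0.26 (SE, adjusted p = 0.212). solexa-403-1161 and solexa-239-1823 had changes of -1.46 ± 1.16 and 0.18 ± 0.65 (SE). The others, solexa-130-3526, solexa-231-1844, solexa-2546-186 and solexa-783-586, were detected on at most 2 arrays of any group.

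At 12 h none of the 29 members tested passed the threshold in limma's fit, beside 2 of all 430 probes (0.465%). An unadjusted p under 0.05 was found for 1 member, beside 41 of the 430 probes (9.53%). That member was solexa-3253-144 (miR-3473b). Its signal was 12.92, 12.79 and 12.61 in the 3 left samples, against 11.84, 11.89 and 12.09 in the 3 right samples. The 2 arteries did not overlap, as was so in either direction for 82 of the 430 probes (19.1%). The change was 0.84 ± 0.16 (SE, n = 3 each, adjusted p = 0.201). At 48 h the same probe was spread from 5.63 to 12.76 on the left and from 7.05 to 13.09 on the right, a change of 0.27 ± 1.41 (SE, adjusted p = 0.935) that went below 0 without left sample 1 or 4 or right sample 2 or 5.

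**Figure D4:**
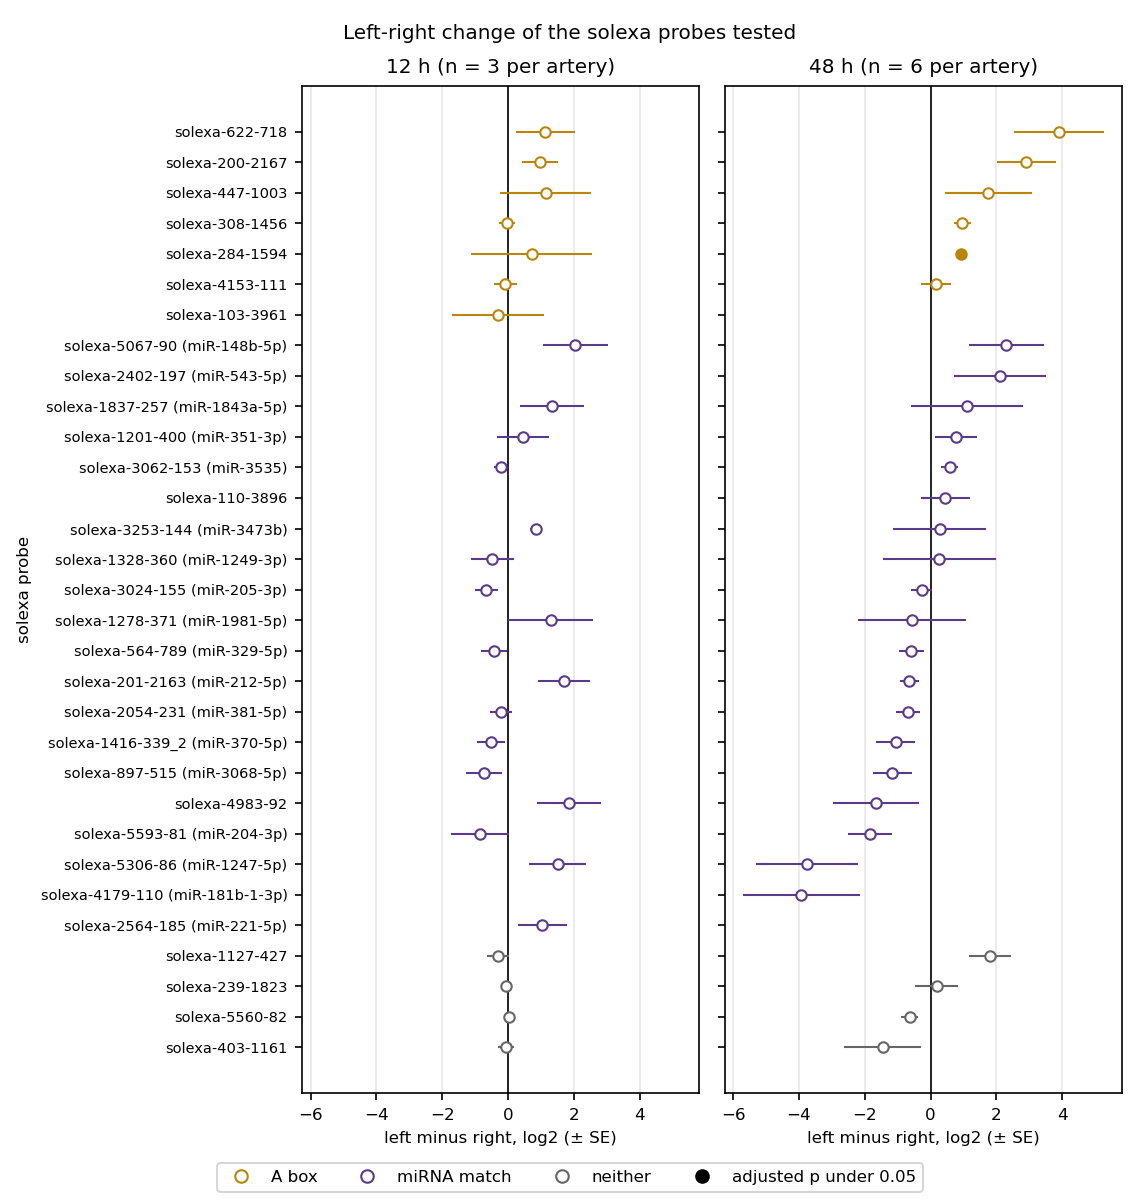
Left-minus-right change (log2, points, with bars of ± 1 SE) of solexa probes tested, other than the A box probe left out, at 12 h (left panel, n = 3 samples per artery) and 48 h (right panel, n = 6), coloured by sequence class, with filled points for an adjusted p under 0.05. The 1 filled point is solexa-284-1594 at 48 h, and all 6 A box points at 48 h lie above 0.

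The A box probes showed no common direction at 12 h. All 8 were tested, with 5 above 0 and 3 below and a median of 0.37, beside 191 of 430 probes above 0 and a median of -0.05. solexa-284-1594 stood at 6.38, 10.82 and 12.33 in the left samples and at 10.17, 10.69 and 6.54 in the right samples, so its change of 0.71 ± 1.85 (SE, adjusted p = 0.916) was smaller than its error. solexa-308-1456 stood at 12.56, 12.93 and 13.17 on the left and at 12.56, 12.94 and 13.27 on the right, a change of -0.04 ± 0.24 (SE, adjusted p = 0.951). solexa-200-2167 stood at 10.74, 11.22 and 11.60 on the left and at 9.67, 9.75 and 11.23 on the right, a change of 0.97 ± 0.54 (SE, adjusted p = 0.512). solexa-622-718 stood at 11.96, 12.15 and 12.25 on the left and at 11.40, 12.54 and 9.0 on the right, a change of 1.14 ± 0.89 (SE, adjusted p = 0.603). In all 4 the samples of the arteries overlapped. solexa-447-1003 stood at 9.11, 10.37 and 9.6 on the left and at 8.71, 5.71 and 11.21 on the right, a change of 1.15 ± 1.38 (SE, adjusted p = 0.797). The changes of solexa-4153-111 and solexa-103-3961 were -0.08 ± 0.35 and -0.29 ± 1.39 (SE).

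Of the 17 miRNA-matched members tested at 12 h, 7 passed the filter through the left carotid alone, and all 7 were above 0, as the filter makes likely. Of the 10 detected on at least 3 arrays of both arteries, 2 were above 0 and 8 below, with a median of -0.45. miR-212-5p (solexa-201-2163) was detected on 6 of 6 left and 2 of 6 right arrays, at 9.66, 7.61 and 8.45 on the left and 8.03, 6.08 and 6.49 on the right, a change of 1.70 ± 0.78 (SE, adjusted p = 0.497). The Mir539 strand (solexa-4983-92) was detected on 5 of 6 left and 2 of 6 right arrays, at 9.55, 7.48 and 11.25 on the left and 7.47, 7.80 and 7.44 on the right, a change of 1.85 ± 0.96 (SE, adjusted p = 0.497). miR-1247-5p was detected on 6 of 6 left and 2 of 6 right arrays, at 7.36, 8.01 and 8.85 on the left and 5.73, 5.72 and 8.23 on the right, a change of 1.51 ± 0.87 (SE, adjusted p = 0.512). These 3 strands are among the 7 that entered through the left carotid alone.

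Negative changes at 12 h came from members detected in both arteries. miR-205-3p (solexa-3024-155), from a miRNA gene best known in epithelium, stood at 8.68, 8.74 and 8.63 on the left and 8.94, 9.36 and 9.71 on the right, without overlap (-0.66 ± 0.36, SE, adjusted p = 0.512). miR-370-5p stood at 8.10, 7.94 and 7.18 on the left and 8.14, 8.20 and 8.42 on the right, also without overlap (-0.52 ± 0.42, SE, adjusted p = 0.626). For miR-3068-5p the values were 9.40, 10.37 and 10.18 on the left and 11.39, 11.01 and 9.77 on the right (-0.74 ± 0.55, SE, adjusted p = 0.582). For miR-329-5p (solexa-564-789) they were 8.85, 8.27 and 8.78 on the left and 8.77, 8.86 and 9.56 on the right (-0.43 ± 0.40, SE, adjusted p = 0.711). For miR-3535 they were 12.42, 12.63 and 12.88 on the left and 12.79, 12.61 and 13.21 on the right (-0.23 ± 0.21, SE, adjusted p = 0.707). miR-204-3p had a change of -0.85 ± 0.89 (SE, adjusted p = 0.765). Of the others tested at 12 h, miR-1843a-5p had a change of 1.33, miR-1981-5p of 1.29, miR-221-5p of 1.04, miR-351-3p of 0.45, miR-381-5p of -0.21 and miR-1249-3p of -0.48, each with an adjusted p of at least 0.582. Of these, miR-1981-5p, miR-221-5p and miR-351-3p entered the test through the left carotid alone, so their positive sign follows in part from the filter. The 4 members of the last class that were tested, solexa-1127-427, solexa-239-1823, solexa-5560-82 and solexa-403-1161, had changes of -0.31, -0.05, 0.03 and -0.07, and their left and right samples overlapped.

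The left-right change was also compared between the times. Of 32 members tested in that contrast, none passed the threshold in limma's fit, beside 1 of all 474 probes (0.211%). The smallest p belonged to miR-212-5p, whose change was -0.64 at 48 h and 1.70 at 12 h, a difference of -2.35 ± 0.68 (SE, adjusted p = 0.176). It lay between -2.91 and -1.81 in the fits that left out 1 sample. At 12 h this probe entered the test through the left carotid alone, so its positive sign there follows in part from the filter. solexa-308-1456 followed, with 0.96 at 48 h and -0.04 at 12 h (difference 1.00 ± 0.42, SE, adjusted p = 0.422), and then miR-1247-5p (adjusted p = 0.439) and solexa-1127-427, with 1.81 at 48 h and -0.31 at 12 h (difference 2.12 ± 0.97, SE, adjusted p = 0.439). miR-1247-5p entered through the left carotid alone at 12 h and through the right alone at 48 h, so its opposite signs at the 2 times follow in part from the filter, and its low samples near background leave the size of the difference unmeasured. For solexa-284-1594 the difference was 0.21 ± 1.39 (SE, adjusted p = 0.971), so its change at 48 h was not shown to differ from that at 12 h.

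Where the array also carried the opposite strand of the same hairpin, few pairs could be compared. At 48 h, 6 of the 19 pairs had both strands tested, but in 3 of them a strand had entered through 1 artery alone, which sets its sign in part. Of the other 3, 2 pairs were both below 0 (those of miR-212 and miR-329) and 1 had opposite signs (that of miR-219). At 12 h, 7 pairs had both strands tested, and in 2 of them both strands had been detected on at least 3 arrays of both arteries, with miR-329 and its opposite strand both below 0, and miR-204-3p at -0.85 where miR-204 was at 1.39. None of the named strands of these pairs passed the threshold at either time. At 48 h miR-148b-5p was detected on 3 left and 0 right arrays and miR-148b on 1 left and 4 right arrays, so each entered through 1 artery alone and no difference between them is given. The change of miR-212-5p was -0.64 and that of miR-212 was -0.24 at 48 h. The named strand was the more often detected of the pair in 12 of the 19 pairs at each time. The solexa strand was the more often detected in 5 pairs at 12 h and in 6 at 48 h. miR-205-3p was detected on 6 of 6 arrays of each artery at both times. The miR-205 probe was detected on 0 left and 2 right arrays at 12 h, and on 1 left and 0 right at 48 h. At 48 h miR-370-5p was detected on 6 arrays of each artery and miR-370 on 1 of each. Whether such probes read the strand they match was not tested. Levels of 2 probes are not set against each other here, since a bead signal depends on the probe.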

How the data were processed

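Per the submitters' processing notes, GenomeStudio 2010.2 made the 2 deposited tables, which give the signal intensity of 655 probes averaged over beads, and a detection p-value, for each of 24 arrays. No source used here says whether background had been removed. The authors' processed intensities served as an alternative. Signals were corrected and normalized separately for each time with neqc (limma 3.58.1, R 4.3.3; offset 16) and put on the log2 scale. Arrays of one artery with a rank correlation above 0.98 were averaged. Probes with a detection p under 0.05 on at least 3 arrays of a group entered limma's moderated test (two-sided, with an intensity trend), and p was adjusted by Benjamini-Hochberg over all probes tested (threshold 0.05). Arrays of the same number did not deviate together (correlations -0.17 to 0.06), so no block was used in the main fit. The labels do not say whether left and right arrays of the same number came from the same mice. These correlations do not exclude such a pairing, and the results with the number as a block are given below. The fit was tested on simulated data. The number of arrays limits the precision. No source used here gives slides or scan dates, so batches were not examined. The members and the marker lists were chosen with earlier results of these data known.

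Values in each sample are given for members past the threshold, for the 5 with the smallest p in each direction at each time, for those detected in 1 artery only, and for those whose targets overlap. The others are given by ranges, changes or counts. One A box member is not reported here by name, and enters the counts, medians and fits only.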

Additional observations from a re-analysis of the deposited data

Results flagged for a closer look

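In 3 of 36 groups of samples examined at 48 h, the most extreme sample stood apart from the rest, and chance gives about 1 in 20 such groups. Right sample 6 of solexa-1416-339_2 (miR-370-5p) stood at 11.36 (log2), against 8.61 for the next highest right sample. Left sample 5 of solexa-3253-144 (miR-3473b) stood at 5.63, against 11.84 for the next lowest left sample. Right sample 3 of solexa-4179-110 (miR-181b-1-3p) stood at 5.05, against 11.68 for the next lowest right sample.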

How the results depend on the processing

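The number of members past the threshold at 12 h, 0, became 3 when every array counted as a sample (solexa-201-2163, solexa-3253-144 and solexa-5067-90), and that between the times, 0, became 1 (solexa-201-2163); this counts repeat arrays as samples. At 48 h the number, 1, became 0 with 75th percentile scaling (solexa-284-1594 at 0.68, adjusted p = 0.282), 3 with no filter, and 2 without the 2 right arrays that detected the fewest probes. It ranged from 1 to 3 when 1 sample was left out, with 3 without right sample 4 and 2 without right sample 1 or 3. With the replicate number as a block it became 0 (solexa-284-1594 at 0.92, adjusted p = 0.0933). The cause of the other changes was not tested. No background subtraction, a stricter filter, an offset of 50, no intensity trend and the authors' processed values kept the numbers at 12 h and 48 h. Over all probes, the 2 calls at 12 h became 72 with every array as a sample, and the 12 calls at 48 h became 3 with percentile scaling, 25 with no filter, 7 with no intensity trend, 0 with the block and 1 without left sample 5. Leaving out 1 sample gave 1 to 6 calls over all probes at 12 h and 1 to 15 at 48 h. The 1 call between the times became 17 with every array as a sample, 6 with no filter and 1 to 7 with 1 sample left out. A detection p under 0.01 gave a median of 25 members detected per array, against 26. Percentile scaling moved the all-probe median to 0.07 from -0.05 at 12 h and to -0.19 from 0.07 between the times, and turned the sign of solexa-1416-339_2 (0.16) and solexa-564-789 (0.12) at 12 h and of the difference between times for solexa-284-1594 (-0.20). Without the 3 right arrays that detected the fewest probes, an alternative chosen after seeing the data, solexa-3024-155 stood at 0.082 and solexa-3253-144 at -0.17 at 48 h.

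Leaving out 1 sample also turned some signs, all in changes with an adjusted p above the threshold. At 12 h the ranges were -0.64 to 2.46 for solexa-284-1594, -0.22 to 0.14 for solexa-308-1456, -0.26 to 2.51 for solexa-447-1003 and -0.057 to 0.097 for solexa-5560-82. At 48 h the range was -0.50 to 1.38 for solexa-3253-144. Between the times the ranges were -0.80 to 0.019 for solexa-1416-339_2, -1.54 to 1.56 for solexa-284-1594, -1.34 to 0.54 for solexa-3253-144, -0.76 to 2.02 for solexa-447-1003, -0.67 to 0.98 for solexa-5067-90 and -0.40 to 0.026 for solexa-564-789. Several of the larger changes rest on samples near background, where the array gives only a bound on the level.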
